A study of Homo sapiens with 28 samples.

Results

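Chromosome arm 13q was measured by ATAC-seq, which cuts and tags open DNA with a transposase, in established human multiple myeloma cell lines. The counted regions of the series comprised 154985 autosomal regions, of which 4458 lay on chromosome 13 and 150527 on the other autosomes. All 4458 were on the long arm, between bases 19029999 and 115106107 of GRCh37, because the first 19020000 bases of the chromosome are a gap in that build. Membership was set by chromosome alone and used no measured value. Libraries came from 22 untreated lines, with 1 library for each line, and from 6 of these lines (Karpas620, KMS27, L363, MM1S, OPM2 and RPMI8226) treated with 10 µM lenalidomide for 3 days. Lenalidomide is a drug that binds cereblon and causes the lymphoid factors IKZF1 and IKZF3 to be degraded. The lines are tumour cells grown in culture, no normal plasma cells are analysed here, and no line was assayed more than once per condition.

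Loss of chromosome 13 or of band 13q14 is among the most frequent changes in myeloma. Band 13q14 carries RB1, the retinoblastoma protein gene that restrains entry into S phase, and DLEU2, a long noncoding RNA gene that hosts miR-15a and miR-16-1. Further along the arm lie DIS3, the catalytic ribonuclease of the exosome, which is often mutated in myeloma, and MIR17HG, the host of the growth-promoting miR-17-92 cluster. A region that is not open still collects a few background reads, and their number follows the number of DNA copies, so background reads can serve as a measure of copy number.

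The mature microRNAs hosted by the 2 host genes are shown because their promoters differed among the lines, and because several of them share a seed. Sequences are from RefSeq (GRCh38.p14), 5′ to 3′, with the seed (bases 2 to 8) in capitals. miR-15a-5p and miR-16-5p, both hosted by DLEU2, had 1 seed, as did miR-17-5p with miR-20a-5p and miR-19a-3p with miR-19b-3p.
miR-15a-5p: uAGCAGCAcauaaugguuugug
miR-16-5p: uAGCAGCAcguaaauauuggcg
miR-17-5p: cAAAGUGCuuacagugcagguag
miR-20a-5p: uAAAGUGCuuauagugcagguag
miR-18a-5p: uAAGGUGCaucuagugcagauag
miR-19a-3p: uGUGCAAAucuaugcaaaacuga
miR-19b-3p: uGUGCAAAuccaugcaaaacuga
miR-92a-3p: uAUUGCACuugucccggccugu

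The central 300 bases of 3 counted regions are given on the plus strand of GRCh37, since the results return to them. The DLEU2 region covers the host gene's start and was almost empty in 2 lines, the RB1 region covers the start and first exon of RB1, and the third region, inside a noncoding gene, was raised after lenalidomide in all 6 lines. Capitals mark matches, on either strand, to the 7 letters AGGGGGC found in the core of the CTCF motif. The other motifs searched (TGANTCA for AP-1, CCGGAAG for ETS factors, GCGCATGCG for NRF1 and GAAANNGAA for IRF factors) had no match in these windows.
DLEU2, chr13:50698752-50699051: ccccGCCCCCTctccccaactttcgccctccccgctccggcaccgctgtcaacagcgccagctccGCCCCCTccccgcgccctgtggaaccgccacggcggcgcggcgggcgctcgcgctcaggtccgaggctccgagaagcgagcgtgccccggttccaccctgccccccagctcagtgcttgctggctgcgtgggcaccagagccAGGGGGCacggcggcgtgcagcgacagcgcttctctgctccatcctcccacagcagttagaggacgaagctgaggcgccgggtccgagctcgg
RB1, chr13:48878047-48878346: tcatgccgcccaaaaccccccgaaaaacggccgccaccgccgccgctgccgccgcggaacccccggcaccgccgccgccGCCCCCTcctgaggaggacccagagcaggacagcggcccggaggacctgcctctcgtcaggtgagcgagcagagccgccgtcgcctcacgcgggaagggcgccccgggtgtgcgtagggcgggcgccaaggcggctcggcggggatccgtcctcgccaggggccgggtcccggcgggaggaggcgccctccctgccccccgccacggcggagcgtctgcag
Region raised by lenalidomide, chr13:31613363-31613662: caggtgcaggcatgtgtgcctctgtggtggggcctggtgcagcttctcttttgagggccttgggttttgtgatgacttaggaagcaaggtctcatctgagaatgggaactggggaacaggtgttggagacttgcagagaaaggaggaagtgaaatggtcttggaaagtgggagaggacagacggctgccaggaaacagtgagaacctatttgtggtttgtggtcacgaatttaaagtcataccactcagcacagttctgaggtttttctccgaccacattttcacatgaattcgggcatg

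The 13q regions were sparse and distal. The arm held 46.4 regions per Mb of sequence, against 57.7 on the other autosomes, and 3.34 protein-coding genes per Mb against 7.15. Promoters made up 12.6% of its regions (563 regions) against 20.2% elsewhere, and 49.9% lay outside genes against 34.7%. The median distance to a coding gene start was 95625.5 bases on 13q and 51120 bases elsewhere. In the central 300 bases of each region the AP-1 letters occurred in 15.5% of 13q regions and 15.2% of all regions, the ETS letters in 2.62% and 3.39%, the NRF1 letters in 0.20% and 0.317%, the IRF letters in 17% and 15.8%, and the CTCF core letters in 4.82% and 7.03%.

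Few 13q regions were open in every line. A region was taken as open in a line where the deposited detection table places a peak of that library in it. Only 101 of the 4458 regions (2.27%) were called in all 22 untreated lines, against 4.03% of regions elsewhere, while 1866 (41.9%) were called in 1 line against 37%. No untreated line had a peak in 358 regions, and 2133 were called in 2 to 21 lines. The always-called regions were mostly promoters, 89 of 101, with a median GC content of 67.3%. Regions called in 1 line were promoters in 6.86% of cases and had a median GC content of 43.7%. Among the always-called 13q regions, ETS letters were present in 16.8% and AP-1 letters in 5.94%, and among regions called in 1 line in 1.77% and 17.5%.

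Depth and the identity of the lines bear on all that follows. Total counts per untreated library ranged from 1599857 to 5564534. The plasma cell markers fixed for the check had a counted region at all 10 gene starts, called in a median of 20 lines. Of 6 B cell markers 5 had a region, called in a median of 3 lines, and the medians were 3 for T cell markers (4 of 6 with a region), 2 for myeloid markers (3 of 5) and 1 for the erythroid markers (1 of 3).

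The background reads of 13q differed 1.80-fold between the lowest and the highest line. For each library, reads in the 13q regions that were not called there were summed and divided by the reads expected from the other untreated lines, and the quotient was scaled so that the median chromosome arm of the library is 1. This copy ratio is relative to the mean of the lines and not to 2 copies. A low ratio from fewer copies in every cell cannot be told apart from a loss carried by only part of the cells. KMS20 had the lowest ratio, 0.731 (95% Poisson interval 0.720 to 0.742), and KMS26 the highest, 1.32 (1.30 to 1.34), with a median of 1.01 over the 22 lines. PE1 (0.765), KMS34 (0.793) and KMS11 (0.794) were also under 0.8, followed by RPMI8226 at 0.838 and LP1 at 0.860. At the other end KMS27 (1.23), Karpas620 (1.25) and OPM2 (1.30) exceeded 1.2, and KMS18 stood at 1.199, just inside that limit. The intervals cover counting error only, and rest on 9385 to 19054 reads per line in 2648 to 4079 uncalled regions.

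The 10 lines between XG-6 (0.962) and H1112 (1.12) formed a middle range in which most neighbours were not separated. Of the 21 pairs of neighbours in the order, 14 had overlapping intervals. The 7 that did not were KMS20 and PE1, KMS11 and RPMI8226, LP1 and XG-6, MM1S (1.01) and KMS12PE (1.06), OCIMY5 (1.08) and H1112, PCM6 (1.14) and KMS18, and Karpas620 and OPM2. The widest gap, 0.102, separated LP1 from XG-6. The interval lay wholly below 1 in 9 lines and wholly above 1 in 10. Within its own library 13q was the third lowest of 39 arms in KMS34 (rank 3), had rank 4 in KMS20, PE1 and KMS11, and was among the highest in KMS27 (rank 38), KMS18 and PCM6 (rank 37). The spread of 13q over the lines, an SD of 0.254 on the log2 scale, was rank 17 among the 39 arms, whose SDs ran from 0.145 (3q) to 0.346 (22q).

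**Figure D1:**
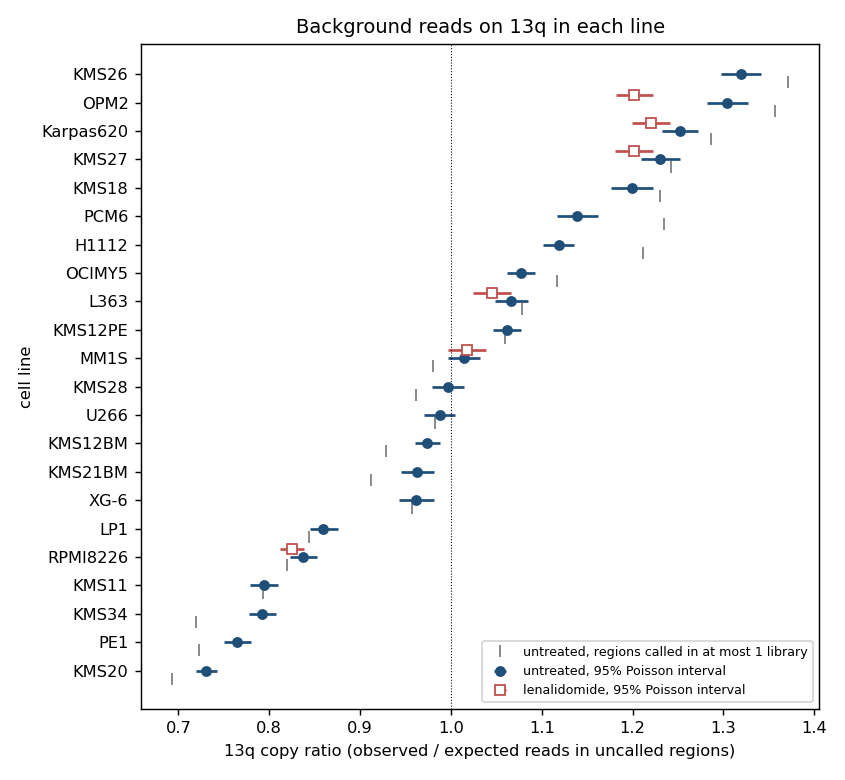
The 13q copy ratio (x axis, observed over expected reads in uncalled regions) of each cell line (y axis). Filled circles are untreated libraries and open squares lenalidomide libraries, both with 95% Poisson intervals, and grey ticks are untreated ratios from regions called in at most 1 library. Untreated lines run from 0.731 in KMS20 to 1.32 in KMS26.

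Restricting the count to regions called in at most 1 of the 28 libraries gave a ratio of 0.693 in KMS20 and 1.37 in KMS26, and the 2 sets of ratios had r = 0.989 over the 22 lines. With this restriction 7 lines exceeded 1.2, including H1112 at 1.21 and PCM6 at 1.24. The median over 5 Mb windows left 1 line under 0.8 in place of 4. With expected reads from region width alone the ends changed lines, with PE1 lowest (0.744, KMS20 0.765) and OPM2 highest (1.23, KMS26 1.22), so the order within each end is not settled. Against depth, Pearson's r of the ratio over 22 lines was -0.05 with total counts (Spearman's rho -0.02, and r 0.12 without the 2 lines farthest from the median ratio) and -0.08 with the number of called regions (rho -0.0017, and r 0.07).

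The arm was not at 1 level in every line. Over 19 windows of 5 Mb with enough expected reads, the SD of the log2 ratio within a line ranged from 0.142 in KMS18 and MM1S to 0.531 in KMS12PE. KMS12PE rose from 0.595 at 20 to 25 Mb to 1.80 at 110 to 115 Mb. KMS12BM, which is known to come from the same patient as KMS12PE, had its lowest window elsewhere, 0.446 at 65 to 70 Mb, where KMS12PE had 1.19, and shared a high end of the arm (1.51 at 110 to 115 Mb). At 20 to 25 Mb KMS12BM had 1.00 (0.939 to 1.06), above the interval of KMS12PE (0.551 to 0.642), whereas at 35 to 40 Mb KMS12BM was the lower of the pair, 0.478 against 0.695. The arm-wide ratios of the 2 lines, 0.974 and 1.06, lay between these segment values.

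Other lines had uneven profiles of their own. Karpas620 ran from 0.645 at 85 to 90 Mb to 1.98 at 110 to 115 Mb, the highest value of that window, in which PE1 had the lowest, 0.465. U266 ran from 0.321 at 55 to 60 Mb to 1.56 at 110 to 115 Mb. The window at 55 to 60 Mb, which is poor in genes, varied most over the lines (SD 0.570 on the log2 scale), from U266 to 2.15 in OPM2, with OCIMY5 at 0.466. Next was the telomeric window at 110 to 115 Mb with an SD of 0.551. The window at 50 to 55 Mb, which contains DLEU2, varied least, with an SD of 0.252 and a range of 0.686 to 1.30.

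**Figure D2:**
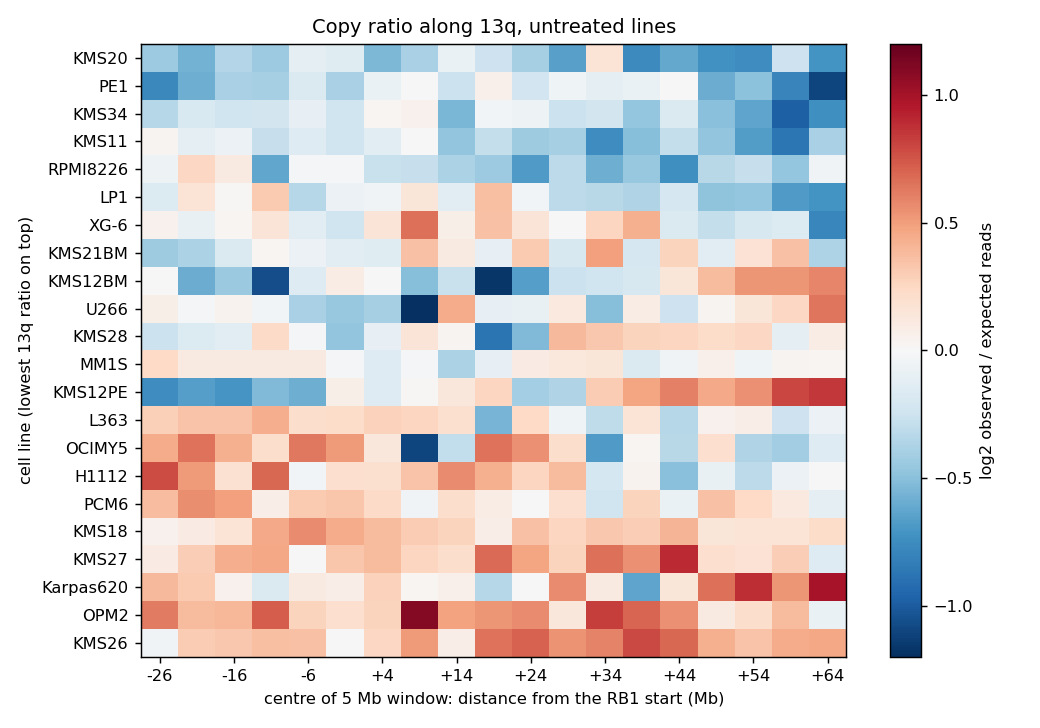
Log2 of observed over expected background reads (colour) in 19 windows of 5 Mb along 13q (x axis, distance of the window centre from the RB1 start in Mb) for 22 untreated lines (y axis, lowest 13q ratio on top). Blue is low and red is high. The columns differ within single rows, most in KMS12PE, KMS12BM, OCIMY5 and U266.

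Focal losses were sought in windows of 1 Mb, listing a line and window where the ratio was under 0.25 and at least 20 reads were expected. Of 2132 line and window combinations in 97 windows, 12 met this rule, in 7 lines. The ratio nearest below the limit was 0.242 and the nearest above it 0.254, so the limit does not fall in a gap of the values.

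The deepest stretch away from the centromere was in KMS28 at 68 to 71 Mb, a gene desert on 13q21 beyond PCDH9. In its 96 uncalled regions KMS28 had 8 reads where 324.6 were expected, a ratio of 0.0246 (0.0106 to 0.0486), and no region was called. The 42 consecutive regions between chr13:69749166 and chr13:70763183, over 1014 kb, had 0 reads in KMS28, where 146.7 were expected. A count of 0 allows up to 3 counts. The other 21 untreated lines had 118 to 700 reads in the same regions, with a median of 220. The coding gene inside the stretch is KLHL1, which encodes a kelch-like actin-binding protein of neurons. Over the arm as a whole KMS28 had a ratio of 0.997.

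**Figure D3:**
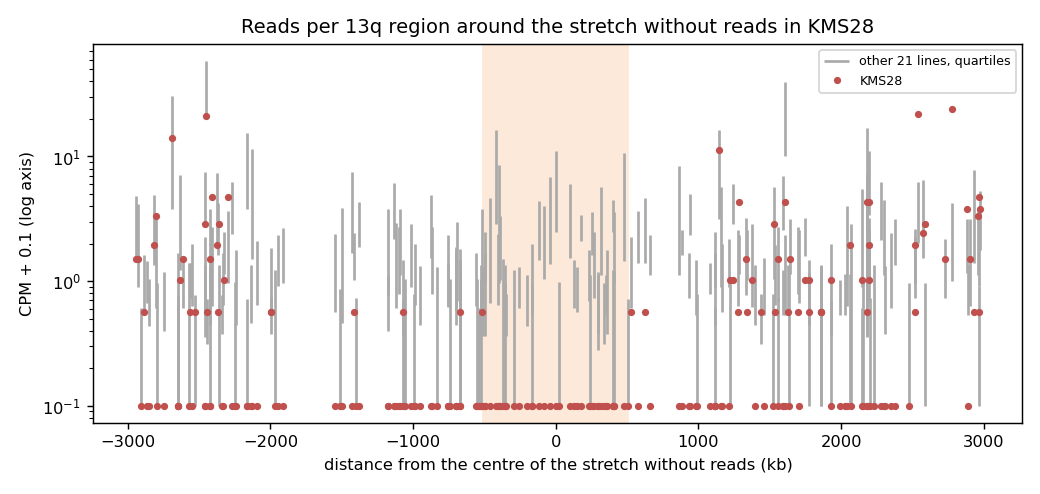
CPM + 0.1 (y axis, log scale) of each 13q region by its distance in kb from the centre of the stretch without reads in KMS28 (x axis). Red points are KMS28, grey bars the quartiles of the other 21 untreated lines and the shaded band the stretch of 1014 kb, in which every KMS28 point is at the floor.

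U266 met the rule in 4 windows between 54 and 59 Mb, with 63 reads against 355.7 expected (ratio 0.177, 0.136 to 0.227). These windows hold PCDH17, a protocadherin gene of the nervous system, and the near-identical PRR20 genes, whose reads may be split among copies. OCIMY5 met it at 56 to 57 Mb (0.242), KMS12BM at 35 to 36 Mb within NBEA (0.235, 49 reads against 208.1) and KMS12PE at 22 to 23 Mb around MICU2 and FGF9 (0.200, 48 reads against 240.4). These counts leave out reads in called regions. KMS12PE had 4 called regions in its window and 287 reads in all (73.0 CPM, median of the other lines 198.5). KMS12BM had 1 called region and 81 reads in all (21.3 CPM, median of the other lines 89.0). The other listed windows had no called region. KMS20 had no read in 8 consecutive regions of NBEA between chr13:35695048 and chr13:35877543 where 46.3 were expected, and the other untreated lines had 7 to 238 there. KMS34 (0.116) and PE1 (0.0236) met the rule at 19 to 20 Mb, beside the centromere gap, where H1112 had the highest ratio of any 1 Mb window, 5.96. That window holds TUBA3C and TPTE2, which have close copies on other chromosomes, so its values depend on how reads with several matches were placed.

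At the named loci the same measure was taken over 500 kb to each side of a gene start. Around RB1 the ratio ran from 0.419 in KMS28 to 1.75 in KMS27, with a median of 1.07. KMS28 had 68 reads against 162.2 expected (interval 0.326 to 0.532), and the overlapping windows around LPAR6 and RCBTB2 gave 0.411 and 0.446. PE1 had 0.608 (0.496 to 0.738) around RB1. KMS20, the line with the lowest arm, had 1.11 (0.970 to 1.27) there. Its RB1 start, at 11.6 CPM, was nonetheless the second lowest of the 22 lines, and its 13 always-called regions at 45 to 50 Mb were at -0.66 on the log2 scale.

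Around DLEU2 the lines spread less, from 0.802 in XG-6 to 1.44 in PCM6. Around DIS3 the ratio ran from 0.375 in KMS12BM to 1.502 in PCM6, and around BORA, its neighbour, from 0.420 to 1.47 in the same 2 lines. Around MIR17HG the ends were H1112 (0.544) and KMS27 (1.90). Around CDK8, a kinase of the Mediator complex, KMS12PE had 0.295, and around TFDP1, the dimerisation partner of E2F factors, PE1 had 0.402 and Karpas620 2.36. KMS12PE had 2.92 around TNFSF13B, the gene of the B cell survival factor BAFF.

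The share of open regions that lay on 13q went with the copy ratio, and their number less so. The share of a line's called regions that lay on 13q ran from 1.7% in PE1 (95% Wilson interval 1.53 to 1.88) to 3.07% in H1112 (2.93 to 3.21). Over the 22 lines this share and the copy ratio had r = 0.846 (rho 0.883, r 0.799 without the 2 farthest lines), whereas the number of called 13q regions had r = 0.312 (rho 0.380, r 0.392). The called regions and the uncalled regions of a line come from the same library, and the call itself decides which regions count as background, so the measures are not independent.

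The 101 always-called regions never enter the copy ratio and give a separate reading. Their median log2 level, relative to the mean of the lines and to the always-called regions of the other autosomes, was -0.60 in KMS20, -0.49 in KMS34, -0.43 in PE1, 0.45 in KMS26 and 0.49 in Karpas620. With the copy ratio, taken without a log, it had r = 0.943 over 22 lines (rho 0.95, r 0.939 without the 2 farthest lines). Within lines, the median log2 level of always-called regions and the log2 background ratio could be compared in 13 windows holding 95 of the regions. There r was above 0 in 22 of 22 lines, from 0.241 in XG-6 to 0.935 in KMS12PE, with a median of 0.568. The points of these comparisons share their library.

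**Figure D4:**
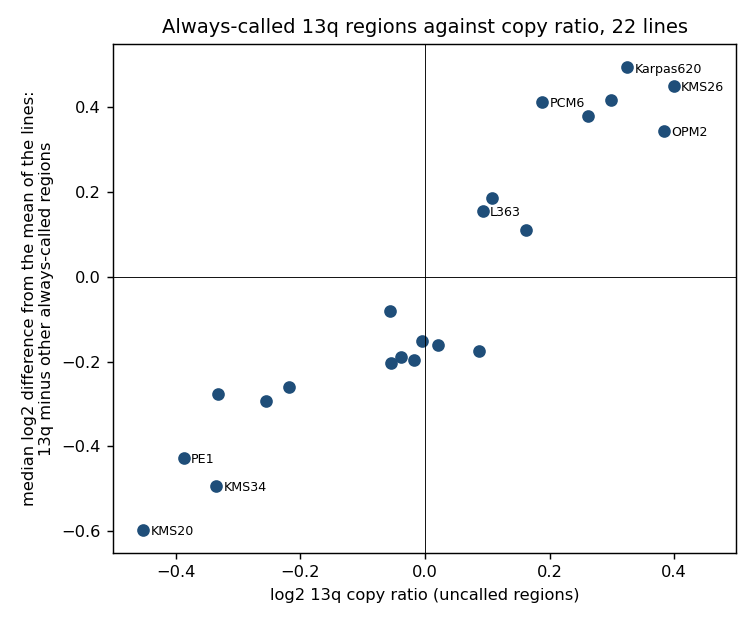
Median log2 level of 13q regions called in all 22 untreated lines, minus that of the always-called regions of other autosomes (y axis, relative to the mean of the lines), against the log2 13q copy ratio from uncalled regions (x axis). Each point is 1 of 22 untreated lines. The points rise together from KMS20 at the lower left to KMS26 and Karpas620 at the upper right.

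Every always-called 13q region had a positive slope on the copy ratio. edgeR's quasi-likelihood test was fitted to all 62104 regions that passed the filter, with the log2 copy ratio as covariate, so that a slope of 1 means a signal proportional to the ratio. The 101 regions had slopes from 0.16 to 2.70 with a median of 1.78 (quartiles 1.59 and 2.07), 24 were higher with the ratio at a Benjamini-Hochberg adjusted p under 0.05, and 0 were lower. At an unadjusted p under 0.05 the counts were 93 and 0. Of the 6072 always-called regions on other autosomes 2 (0.0329%) were higher and 0 (0%) lower, with 1242 passing at an unadjusted p, 29 of them lower, and DESeq2 called 231 of 5502 higher and 2 lower. Over all regions tested the shares were 0.0499% higher and 0.00483% lower. The other always-called regions had a median slope of 0.50, and 83.6% of them were above 0, so the 13q median exceeded theirs by 1.28.

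The number of calls was less firm than the slopes. Without Karpas620, KMS18, KMS27, KMS34 or PE1 the number fell from 24 to 6 in each case, without KMS20 to 7, without LP1 to 10 and without RPMI8226 to 13, while 100 or 101 slopes stayed above 0 under every omission. DESeq2 called 80 of the 86 always-called 13q regions to which it gave an adjusted p. Chromosome 13 had the highest median slope of the 22 autosomes, followed by chromosome 14 with 1.02. The lines differ in many other chromosomes, and the part of those in the slopes was not tested.

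The 13q genes were grouped by role in lists of 83 genes, 75 of which had a counted region at the start and 65 a region that passed the filter. Of these 65, 7 were higher with the copy ratio, 0 were lower, 62 had a slope above 0, 40 passed at an unadjusted p and DESeq2 called 31. Over all 1375 13q regions tested 28 were higher and 0 lower, and 0.0499% of all regions tested were higher, so each list's count below is to be read against an arm on which calls were already more frequent. The median slope was 1.79, against -0.03 over all regions tested and 1.31 over all 13q regions tested. The regions were fitted with a ratio of their own arm. Positive slopes were shared by most tested regions of the arm (1211 of 1375) and are not particular to these genes.

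Among the 12 tested genes of the 13q14 deletion region, 2 rose with the ratio and the median slope was 1.71. Among them was SETDB2, a histone methyltransferase gene (slope 1.93 ± 0.36 SE, edgeR adjusted p = 0.034). RB1 had a slope of 1.88 ± 0.48 that did not pass (edgeR adjusted p = 0.211). In RNA decay and translation 2 of 6 rose, with a median slope of 1.90: DIS3 (2.05 ± 0.29, edgeR adjusted p = 0.0041) and TPT1, the translationally controlled tumour protein gene (2.08 ± 0.39, edgeR adjusted p = 0.034).

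In cell cycle and DNA repair 1 of 12 rose, with a median slope of 2.23. This was BORA, whose product activates Aurora A and PLK1 at mitotic entry (2.2 ± 0.29, edgeR adjusted p = 0.0041). In the secretory pathway 1 of 9 rose, DNAJC3, a co-chaperone of the endoplasmic reticulum that restrains PERK (2.29 ± 0.40, edgeR adjusted p = 0.028), and the median was 1.57. Among transcription factors 1 of 10 rose, the repressor gene KLF12 (2.13 ± 0.39, edgeR adjusted p = 0.034), with a median of 1.93. None of 8 immune genes, 7 genes of other tissues or 2 microRNA hosts passed in edgeR. Their medians were 1.32, 1.13 and 1.88, and of these 17 genes 1 passed at an unadjusted p and 1 in DESeq2.

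The levels behind these slopes differed severalfold between lines. At the DIS3 start (chr13:73355531-73356600, promoter and first exon) accessibility ran from 35.5 CPM (counts scaled to a common library total) in KMS34 through a median of 65.4 to 124 in KMS18. At the BORA start (chr13:73301073-73302322) it ran from 38.1 CPM in PE1 through 87.6 to 178.7 in Karpas620. At the DNAJC3 start (chr13:96328820-96329880) the lowest line was KMS20 with 41.9 CPM, the median 94.96 and the highest Karpas620 with 213.7. The lowest lines of all 3 genes were among the 4 with a 13q ratio under 0.8, and KMS18 and Karpas620 were among the 5 with the highest ratios. The 3 genes are among those whose slopes passed in these same lines, so this placing is not a separate observation.

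RB1 was open in most lines, at modest levels. At its start (chr13:48877406-48878987, promoter and first exon) PE1 had 9.38 CPM and no called peak, the median line 24.9 and KMS18 55.5, and the region was called in 21 of 22 lines. MIR17HG (chr13:91999066-92000220) was called in all 22 lines, from 18.05 CPM in KMS20 through a median of 38.2 to 168.6 in Karpas620.

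The DLEU2 start was almost without reads in 2 lines. Its start region (chr13:50697901-50699902) had 1.19 CPM in KMS21BM, from 2 counts, and 4.16 CPM in Karpas620, from 12 counts, and was called in neither. Each of the other 20 lines had a call and at least 60 counts, and the median over all 22 lines was 53.1 CPM and the highest value 149.9 CPM, in L363. Background reads around DLEU2 in the untreated libraries gave ratios of 0.827 (0.696 to 0.975) in KMS21BM and 0.952 (0.798 to 1.13) in Karpas620. The lenalidomide library of Karpas620 gave a lower ratio there, 0.601 (0.466 to 0.764), and the 2 intervals do not overlap. The 2 lines differed at the neighbouring start of TRIM13, a ubiquitin ligase gene (chr13:50570671-50571841). There KMS21BM was again the lowest line, with 5.36 CPM from 9 counts and no call, whereas Karpas620 had 31.6 CPM against a median of 28.6. Between these starts, chr13:50655655-50657159 had 39 counts in KMS21BM, where the other 20 lines had at least 31 and a median of 106.5. Beyond the DLEU2 start, KMS21BM had 4 counts at chr13:50704646-50705662 (median 38) but 36 at chr13:50759709-50760405 (median 11). Whether DNA was closed or lost at these starts was not tested. The DLEU2 window printed above holds 3 matches to the CTCF core letters, which occurred in 9.90% of the always-called 13q regions and in 17.6% of all always-called regions.

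At other starts 1 to 4 lines stood far below the rest, with background around the gene that was low in some of them and not in others. At the CDK8 start (chr13:26827773-26829155) KMS28 had 0 counts, which allows up to 3, while the other 21 lines were all called, and the median was 31.5 CPM. The background ratio of KMS28 around CDK8 was 0.798. At the start of KLF5, a zinc-finger factor gene (chr13:73632615-73633580), KMS12BM had 1.05 CPM from 4 counts, and the next line, KMS20, had 28.1 CPM against a median of 57.6. The background around KLF5 was also lowest in KMS12BM, at 0.484. At the start of PCDH9, a protocadherin gene (chr13:67804170-67805527), KMS12PE (0.763 CPM), KMS12BM (0.789), U266 (1.37) and Karpas620 (2.08) were far below the other 18 lines, which ran from 15.3 to 120.1 CPM and were all called. The background ratio around PCDH9 was 0.445 (0.360 to 0.544) in KMS12BM, the lowest of the 22 lines, 0.858 in KMS12PE, 0.973 in U266 and 0.804 in Karpas620.

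A further set of starts was called in some lines and not in others. IRS2, the adaptor of the insulin and IGF1 receptors (chr13:110438840-110440161), was called in 13 lines at 25.1 to 81.3 CPM. It was uncalled in 9 lines, of which 8 were at 0 to 1.78 CPM and PE1 at 11.9. SPRY2, an inhibitor of receptor tyrosine kinase signalling (chr13:80915211-80915700), was called in 9 lines and had 0 counts in 5, with its highest value, 47.5 CPM, in OPM2. The background ratio around SPRY2 was lowest in U266 (0.379), a line with 0 counts at the start. Around IRS2 it was lowest in KMS34 (0.426), where the start was called. The part of copy number in these uncalled starts was not tested. LCP1, which encodes the leukocyte actin-bundling protein L-plastin (chr13:46756042-46756851), was called in 17 lines with a median of 16.8 CPM and reached 60.6 CPM in KMS18. Of the 14 genes of other tissues, 11 had a region, 0 of these was called in all 22 lines, and the median was 2 lines.

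**Figure D5:**
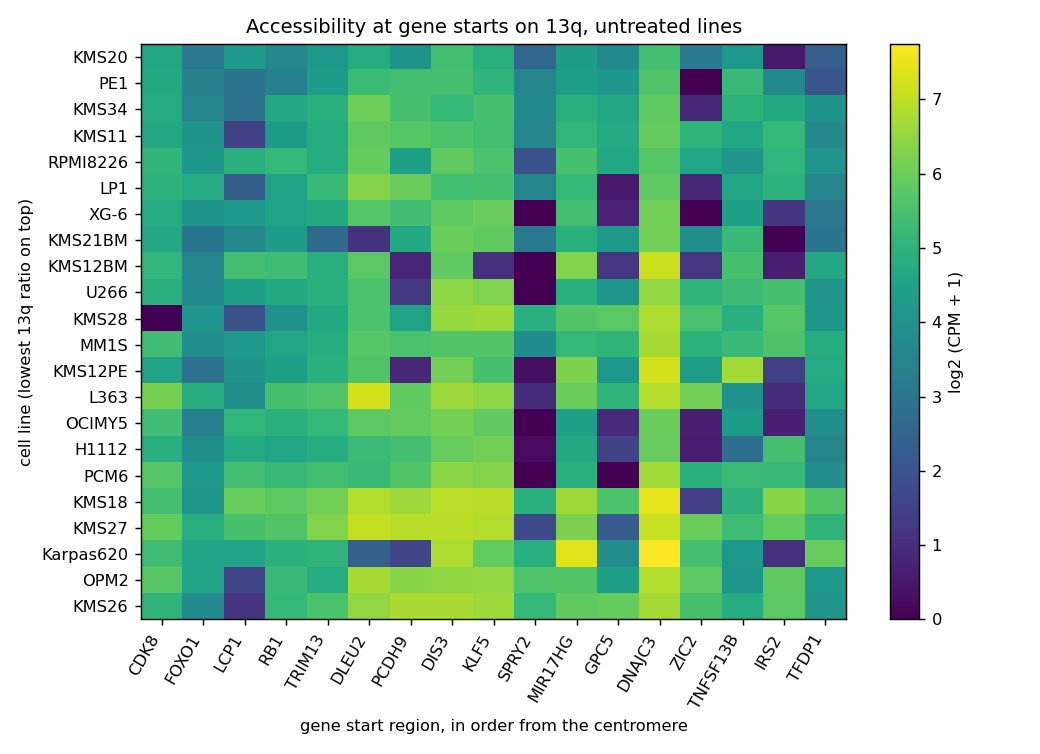
Log2(CPM + 1) (colour) at the start region of 17 genes on 13q (x axis, in order from the centromere) in 22 untreated lines (y axis, lowest 13q ratio on top). Dark cells are starts with few or no reads, and whether their DNA was closed or lost was not tested. DLEU2 in KMS21BM and Karpas620, CDK8 in KMS28, KLF5 in KMS12BM and PCDH9 in 4 lines stand out from otherwise open columns. IRS2 and SPRY2 alternate between the lines.

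The most open 13q regions were promoters. By mean over the lines, the first of the regions called in all 22 was at the RAP2A promoter (chr13:98084993-98086397), a Ras-related GTPase gene, at 73.1 CPM in KMS20, a median of 147.2 and 311.2 in Karpas620. RAP2A is the deposited label of this region, which also covers the start of a long noncoding RNA gene. The next 4 were 2 regions at ING1, an inhibitor of growth gene (chr13:111364556-111365931 and chr13:111367387-111368370), with medians of 127.1 and 102.8 CPM, the ANKRD10 promoter (chr13:111566549-111568187, 109.9) and the KLF12 promoter (chr13:74707916-74710395, 112.7). The first ING1 region lies 116 bases from the ING1 start, and its deposited label is CARS2. KMS12PE was the highest line at both ING1 regions and at ANKRD10 (332.6, 307.4 and 269.7 CPM), and all 3 lie in the telomeric end of the arm where its background ratio was 1.80. Karpas620 had a higher background ratio there, 1.98, but lower levels at all 3 (227.9, 214.0 and 236.9 CPM). The part of copy number in these levels was not tested.

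The regions that varied most were not the same ones. Among regions called in at least 5 lines, the largest SD of log2(CPM + 1) was 2.71, in ADPRHL1, a heart-expressed gene (chr13:114103047-114104134), which was called in 14 lines, had 0 counts in 2 and reached 254.6 CPM in Karpas620. It was followed by a region in GPC6, a glypican gene (chr13:93879621-93880987, called in 8 lines, highest 140.0 CPM in KMS27), the IRS2 start, an intergenic region at chr13:81913969-81915362 (called in 7 lines, 124.4 CPM in KMS21BM) and a region within ATP11A, a phospholipid flippase gene (chr13:113527025-113527912, called in 16 lines, 1.04 CPM in OPM2 to 265.3 in KMS18). The 5 SDs ran from 2.24 to 2.71. Regions called in a single untreated line numbered from 4 in KMS34 to 559 in H1112, which also had the most calls. Over all autosomes such regions numbered 654 in KMS34 and 13785 in H1112. The share of them on 13q was 0.612% in KMS34, the lowest, 4.06% in H1112 and 5.55% in OPM2, the highest.

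Lenalidomide raised about the share of 13q regions that it raised among all regions, and lowered a larger share, a difference that was not tested. In the fit paired by cell line, 810 13q regions were tested in 6 lenalidomide and 6 untreated libraries, and edgeR called 33 raised (4.07%) and 18 lowered (2.22%) at an adjusted p under 0.05. Over all 37732 regions tested, 4.2% were raised and 1.24% lowered. Of the 51 changed 13q regions 29 moved the same way in all 6 lines, 16 up and 13 down. Without MM1S the 51 fell to 21, without L363 to 30 and without KMS27 to 31. Lowered regions fell from 18 to 10 without Karpas620 or MM1S, to 9 without KMS27 or L363, and to 7 without OPM2, and raised regions fell from 33 to 21 without L363 and to 11 without MM1S. DESeq2 called 17 changed, and without the line as a block 0 passed in edgeR, with 8 at an unadjusted p under 0.05. The shares of all regions changed in these alternative fits are not reported here.

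The region raised with the smallest adjusted p of those named, chr13:31613158-31613866 in a noncoding gene, was higher after lenalidomide in every line. It went from 5.20 to 17.2 CPM in Karpas620, from 4.38 to 11.6 in KMS27, from 2.04 to 17.1 in L363, from 5.49 to 19.96 in MM1S, from 8.87 to 32.1 in OPM2 and from 10.4 to 12.2 in RPMI8226 (log2 change 1.57 ± 0.24 SE, edgeR adjusted p = 3.49e-05). Its central 300 bases are those printed above. Among the 29 called regions that moved the same way in all 6 lines, the other 2 with the largest increases were at chr13:51905500-51906115 near SERPINE3 (1.66 ± 0.35, edgeR adjusted p = 0.0023) and chr13:59566552-59567052 between genes (1.57 ± 0.31, edgeR adjusted p = 0.0011). The largest decreases among these 29 were in an intron of MIPEP, a mitochondrial peptidase gene (chr13:24326395-24327229, log2 change -1.51 ± 0.30), between genes at chr13:38993451-38994071 (-1.13 ± 0.28) and in an intron of HS6ST3, a heparan sulfate sulfotransferase gene (chr13:96990257-96990794, -1.01 ± 0.31). The last counts as lower in RPMI8226 by 0.472 against 0.471 CPM alone. None of these 6 regions was a promoter, and they were called in 2 to 8 of the untreated lines.

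Of the 60 listed 13q genes with a tested start, edgeR called 1 raised and 1 lowered. KLF5 was lower in every line. It went from 57.9 to 45.4 CPM in Karpas620, 115 to 86.9 in KMS27, 85.7 to 68.7 in L363, 49.4 to 39.2 in MM1S, 89.7 to 65.6 in OPM2 and 46.3 to 32.5 in RPMI8226 (log2 change -0.39 ± 0.09 SE, edgeR adjusted p = 0.0050, and 0.038 with DESeq2). TNFSF13B was higher in 4 of the 6 lines. It went from 39.1 to 77.6 CPM in KMS27, 14.8 to 44.7 in L363, 37.4 to 62.4 in MM1S and 15.6 to 19.8 in RPMI8226, but from 16.7 to 15.3 in Karpas620 and 16.2 to 12.2 in OPM2 (0.64 ± 0.16, edgeR adjusted p = 0.012, and 0.134 with DESeq2). RB1 (0.17 ± 0.12), DIS3 (-0.03 ± 0.09), DLEU2 (0.10 ± 0.09) and MIR17HG (-0.02 ± 0.09) did not pass.

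The lenalidomide libraries also gave a second measurement of each ratio in the 6 lines. The ratio was 1.25 untreated and 1.22 treated in Karpas620, 1.23 and 1.202 in KMS27, 1.07 and 1.04 in L363, 1.01 and 1.02 in MM1S, 1.30 and 1.202 in OPM2 and 0.838 and 0.825 in RPMI8226. The mean log2 difference was -0.04 (SD 0.04, n = 6), lower in 5 of 6 lines (exact two-sided sign-flip permutation test, p = 0.0625, where the smallest possible is 0.03125). Over all 39 arms the differences between the libraries of a line had an SD of 0.0792 on the log2 scale. The profiles over 19 windows of 5 Mb had r from 0.667 in OPM2 to 0.968 in Karpas620 between the untreated and the treated library. Single loci, on 67 to 194 reads each at RB1 and DLEU2, repeated less closely. Around RB1 the ratio was 1.75 untreated and 1.86 treated in KMS27, but 1.01 and 1.39 in OPM2. Around DLEU2 it was 0.952 and 0.601 in Karpas620, 1.02 and 0.729 in OPM2, and 1.201 and 1.21 in L363.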

How the data were processed

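ATAC-seq was made from sorted cells of 22 untreated lines and 6 lenalidomide libraries. The authors aligned reads to GRCh37 (Bowtie2 2.2.6 and SAMtools 1.7 in the submitters' processing notes), marked PCR duplicates, called peaks in each library with MACS2 2.1.0.20151222 at q 0.01, and deposited raw read counts over the union of peaks with a table of peaks per region. Whether duplicates were removed, whether reads were shifted for the transposase and whether reads or fragments were counted is not given in the sources used here. The deposited normalized table was not used.

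Expected background reads came from a Poisson model with a rate per region and a factor per library, fitted on regions uncalled in each library (30 iterations). CPM is the count divided by the library's total count over all regions, scaled to the usual common total. Promoters, exons and introns follow GENCODE v44lift37 and the deposited annotation, and a gene's region overlaps its start or lies within 1 kb of it. Tests on counts used edgeR 4.0.16 (TMM, filterByExpr, quasi-likelihood, Benjamini-Hochberg over all regions tested, adjusted p under 0.05) in R 4.3.3. DESeq2 1.42.0 was the alternative tool. The values of some listed genes are not reported here. Scripts were tested on simulated data. Untreated and treated libraries were paired by cell line, as the labels give it, and deviations of same-line libraries had r of 0.687 to 0.860 against -0.34 to 0.11 for other pairs over 96049 regions. Named genes were those of fixed lists, the 5 regions with the highest mean and the 5 with the largest SD, and the 3 largest changes each way after lenalidomide among regions moving alike in 6 lines. The chromosome and the gene lists were chosen with earlier results of these data known. Lines are the replicates, and p-values over lines measure the spread between these lines. KMS12BM and KMS12PE, from the same patient, entered as separate lines and are not independent. The 24 calls on the copy ratio were 30 without KMS12BM and 29 without KMS12PE, and both were not left out together.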

Additional observations from a re-analysis of the deposited data

Results flagged for a closer look

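For the 6 lines with a lenalidomide library, 19 13q values were compared over the lines. Some were changes between the 2 libraries of a line, and the others were levels in the treated library alone. A value was singled out where its gap to the nearest other line, over the whole range, was above Dixon's 95% critical value. Chance alone gives about 1 such case in 20, and 2 were found. The log2 change of the 13q copy ratio in OPM2 was -0.12, with a gap of 0.658 of the range, while the other 5 lines lay between -0.04 and 0.0042. The log2 change at the DLEU2 start in Karpas620 was 0.95, with a gap of 0.810 of the range. There the level went from 4.16 to 9.0 CPM, on 12 and 23 counts.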

How the results depend on the processing

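The median 13q ratio and its spread, and the number of slopes above 0, kept to within the set limits under every alternative run. The median ratio is held near 1 by the way expected reads are set, so its steadiness is not a check. The median slope of the other always-called regions stayed positive, at 0.50 as reported and 0.30 without TMM. Regions called in at most 1 library moved the highest ratio to 1.37, the lowest to 0.693, the lines over 1.2 to 7 and the median 13q slope to 1.58. Ratios from region width had ends of 0.744 (PE1) and 1.23 (OPM2). Scaling by reads outside chromosome 13 put PE1 (0.738) beside KMS20 (0.739), and the median of 5 Mb windows had a highest value of 1.34 with 1 line under 0.8. Calling regions open at 2 CPM gave a highest 13q share of 2.89%. The cause of these shifts was not tested. Regions higher with the ratio numbered 24 in the reported fit, 8 without TMM, 1 without the filter on low counts and 80 with DESeq2, and 6 to 35 when leaving out each line. The excess of the 13q median slope over the other autosomes stayed between 1.12 and 1.39 in 27 alternatives. Lenalidomide changed 92 regions (77 raised) without the filter, 17 (13 raised, 4 lowered) with DESeq2, and 0 (0 raised, 0 lowered) without the replicate block. Leaving out each line in turn gave 21 to 66 changed, 11 to 44 raised and 7 to 22 lowered. The shares of all regions changed under these settings are not reported here, so these 13q counts have no background beside them. The difference in the ratio after lenalidomide was -0.05 to -0.02 when leaving out a line, and -0.01 with p = 0.781 (exact sign-flip) in regions called in at most 1 library, against -0.04 and p = 0.0625 as reported, p was 0.729 (exact permutation) without the replicate block. The block changed no other call. With 1 library per line and condition, differences between lines have no replicate check.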
